A study of Mus musculus with 2 samples.

Results

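The genes described here encode the proteasome, its activators and its assembly factors. They were taken by name as all symbols of the form Psma, Psmb, Psmc, Psmd, Psme, Psmf or Psmg followed by a number and, where present, letters. This rule found 49 of the 17608 genes measured in mouse fetal liver erythroid progenitors. It took 8 genes of the alpha ring, 7 constitutive and 3 immunoproteasome genes of the beta ring, 6 ATPases and 11 other subunits of the 19S cap, and 3 assembly factors of that cap. It also took 6 other activators and inhibitors and 4 assembly chaperones of the 20S core. Psmc3ip matches the name but encodes a partner of meiotic recombinases and not a proteasome subunit, so 48 of the 49 belong to the system by function.

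The 20S proteasome is a barrel of stacked alpha and beta rings that cuts proteins into peptides. The 19S cap recognises ubiquitin-tagged proteins, unfolds them and feeds them into the barrel. In blood and immune cells the catalytic beta subunits encoded by Psmb5, Psmb6 and Psmb7 can be replaced during assembly by Psmb8, Psmb9 and Psmb10, which gives the immunoproteasome, known for cutting peptides for MHC class I presentation and inducible by interferon gamma. Red cell precursors rely on proteasomal degradation as they clear proteins during maturation.

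Single-cell RNA sequencing with a 10x 3' version 3 kit was done on CD71/CD24low cells from the liver of C57BL/6 embryos at E14.5 of gestation. The hashed library held 4 pools that the labels call FACS CFU-E, FACS BFU-E, PE-high and PE-low, and the labels set a magnet method beside FACS (fluorescence-activated cell sorting). The CITE-seq library, stained with barcoded antibodies against CD117 and CD71, held cells named CS CFUE, cells named CS BFUE and 2136 cells with no pool name. A BFU-E (burst-forming unit-erythroid) is the earlier of the red cell progenitors studied and a CFU-E (colony-forming unit-erythroid) the later. FACS CFU-E had 167 cells, FACS BFU-E 233, PE-high 294, PE-low 208, CS CFUE 195 and CS BFUE 122. All pools share strain and stage of gestation. The labels' protocol also describes growth in a medium holding 100 uM of the glucocorticoid dexamethasone, or methanol in its place, and the sources used here do not say whether the sequenced cells went through it. Nor do they give the number of embryos, the meaning of PE and CS, or how cells were assigned to names.

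Each pool is 1 sample, and cells are not replicates. No difference below therefore has a replicate check, a p-value or a standard error. Levels are unique molecular identifiers (UMIs, each standing for 1 captured transcript) per 1000000 UMIs of the pool, written CPM. Ranges in brackets are exact 95% intervals that cover counting error only. Pools held 2968491 to 11003022 UMIs, with a median per cell between 23449 in CS BFUE and 38663.5 in PE-high.

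The pools matched their names in part. The summed level of 10 erythroid markers was 2097 CPM in FACS CFU-E against 510 in FACS BFU-E, 1936 in PE-high and 621 in PE-low, and 1589 in CS CFUE and 378 in CS BFUE. Alas2, at 0 in CS BFUE, was the 1 marker of that list at 0 in any pool. The summed level of 10 granulocyte and monocyte markers was 8.02 CPM in FACS CFU-E against 1449 in FACS BFU-E, 226 in PE-high and 902 in PE-low, and 16.8 in CS CFUE and 687 in CS BFUE. Elane, Ly86, Fcgr3, Ms4a3 and Cst7 were at 0 in FACS CFU-E, Elane and Ms4a3 in CS CFUE, and Ly86 in CS BFUE. Hepatocyte markers summed to 156 CPM in CS CFUE and 33.4 in CS BFUE, against 2.73 to 4.07 CPM in the hashed pools. Lymphoid markers summed to 35.1 CPM in FACS CFU-E against 319 in FACS BFU-E, 71.4 in PE-high and 320 in PE-low, and 41.3 in CS CFUE and 296 in CS BFUE. Cd3e was at 0 in all 6 pools, Cd79a in FACS BFU-E, Cd3g in PE-low and CS BFUE, and Rag1 in CS BFUE. Early progenitor markers summed to 876 to 987 CPM in the earlier pools and 197 to 299 in the later pools. Megakaryocyte markers summed to 47.2 to 64.8 CPM in the earlier pools and 8.75 to 15.9 in the later pools.

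Psmb8 and Psmb9, which varied together across pools, lie in the MHC region of chromosome 17 with the peptide transporter gene Tap1 between them, while Psmb10 and Psmb5 lie elsewhere. In GRCm38.p6, Psmb9 spans chr17:34182030-34187330, Tap1 chr17:34187556-34197225, Psmb8 chr17:34198195-34201454 and the transporter gene Tap2 chr17:34204479-34216321. Psmb9 and Tap1 are transcribed away from each other from starts 226 bases apart, a shared promoter region. Psmb10 spans chr8:105935728-105938392 and Psmb5 chr14:54614120-54617995. The 250 bases before each gene start, from RefSeq on GRCm38.p6, are shown 5′ to 3′ on the strand of the gene, because these are the 3 immunoproteasome subunits and, for contrast, the constitutive counterpart of Psmb8. Capitals mark matches, on either strand, to 6 motifs: the core of the interferon-stimulated response element (GAAA, any 2 bases and GAAA), TTCNNNGAA (STAT site), TGACNNNGC (core of the antioxidant response element), GATAA (GATA factors), GAGGAA (core of the PU.1 site) and GGGCGG (Sp1 box). The windows are Psmb8 at chr17:34197945-34198194 on the plus strand, Psmb9 at chr17:34187331-34187580 on the minus strand, Psmb10 at chr8:105938393-105938642 on the minus strand and Psmb5 at chr14:54617996-54618245 on the minus strand.
Psmb8: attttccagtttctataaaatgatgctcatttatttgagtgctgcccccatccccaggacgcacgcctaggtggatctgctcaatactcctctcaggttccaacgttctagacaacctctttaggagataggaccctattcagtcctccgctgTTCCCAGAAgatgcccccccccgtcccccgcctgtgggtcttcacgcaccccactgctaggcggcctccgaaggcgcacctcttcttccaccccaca
Psmb9: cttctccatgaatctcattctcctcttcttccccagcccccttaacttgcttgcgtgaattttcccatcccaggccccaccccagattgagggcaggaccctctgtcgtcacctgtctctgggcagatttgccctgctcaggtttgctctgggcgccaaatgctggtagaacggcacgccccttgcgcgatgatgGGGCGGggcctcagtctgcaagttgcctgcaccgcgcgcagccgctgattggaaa
Psmb10: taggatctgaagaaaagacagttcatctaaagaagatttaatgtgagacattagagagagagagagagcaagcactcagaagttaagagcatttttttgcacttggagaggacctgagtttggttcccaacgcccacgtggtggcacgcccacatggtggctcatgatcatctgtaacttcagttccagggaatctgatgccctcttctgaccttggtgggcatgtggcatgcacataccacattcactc
Psmb5: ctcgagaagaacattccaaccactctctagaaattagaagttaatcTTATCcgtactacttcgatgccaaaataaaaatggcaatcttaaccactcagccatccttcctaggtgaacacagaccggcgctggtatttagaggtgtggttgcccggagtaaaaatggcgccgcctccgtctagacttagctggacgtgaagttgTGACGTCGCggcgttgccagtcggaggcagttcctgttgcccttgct
Psmb8 held 1 match, to the STAT motif, and Psmb9 held 1, to the Sp1 box. Psmb10 held none of the 6 motifs, and Psmb5 held 1 GATA and 1 antioxidant response match. No matches overlapped in these windows. The first 25 bases printed for Psmb9 lie within Tap1. Of 44 windows of 41 of the 49 genes, 52.3% held the Sp1 box, against 32.7% of 32851 windows of all genes. The shares for the other motifs were 6.82% against 2.98% for the interferon element, 4.55% against 7.02% for the STAT site, 11.4% against 10.2% for the antioxidant element, 18.2% against 22.6% for GATA and 15.9% against 23.3% for PU.1. The interferon element was matched in Psmb3, Psmd4 and Psmd9 and not in an immunoproteasome gene. A match is a run of letters and not a measured site, and no match says only that these letters are not in these windows.

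Between stages, few proteasome genes differed by the size counted here, and they were the immunoproteasome gene Psmb8, the activator genes Psme1, Psme2 and Psme4, the inhibitor gene Psmf1 and the chaperone gene Psmd9. Genes were compared where either pool reached 50 CPM and either pool had 10% or more of its cells with a UMI, and a ratio of 1.5 either way was counted as past, a fixed size and not a test. The stages were compared in 3 pairs of pools, called here the FACS, PE and CS pairs. Between FACS CFU-E and FACS BFU-E, 45 of the 49 were compared, of which 1 lay past 1.5-fold higher in FACS CFU-E and 3 lower, beside 9.15% higher and 9.58% lower (18.7% either way) of 3476 genes compared. Between PE-high and PE-low, 46 were compared, 2 higher and 3 lower in PE-high, beside 5.84% higher and 6.94% lower (12.8% either way) of 3443 genes. Between CS CFUE and CS BFUE, 44 were compared, 2 higher and 2 lower in CS CFUE, beside 10.7% higher and 8.77% lower (19.5% either way) of 3077 genes. The share of proteasome genes past the limit was thus below that of all genes in the FACS and CS pairs and near it in the PE pair, with no test made. Psmb8 and Psme1 were lower in the later pool in all 3 pairs, and Psmd9 was higher in all 3. Psme2 was past the limit in the FACS and PE pairs, Psmf1 in the PE pair and Psme4 in the CS pair. Psma8, Psmb9 and Psme2b stayed under 50 CPM in all 6 pools, so they entered no comparison, and Psmb11, the catalytic subunit of the thymus, was not among the genes measured. Psmb8 was under 50 CPM in the 3 later pools, so it could enter only by being higher in the earlier pool.

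**Figure D1:**
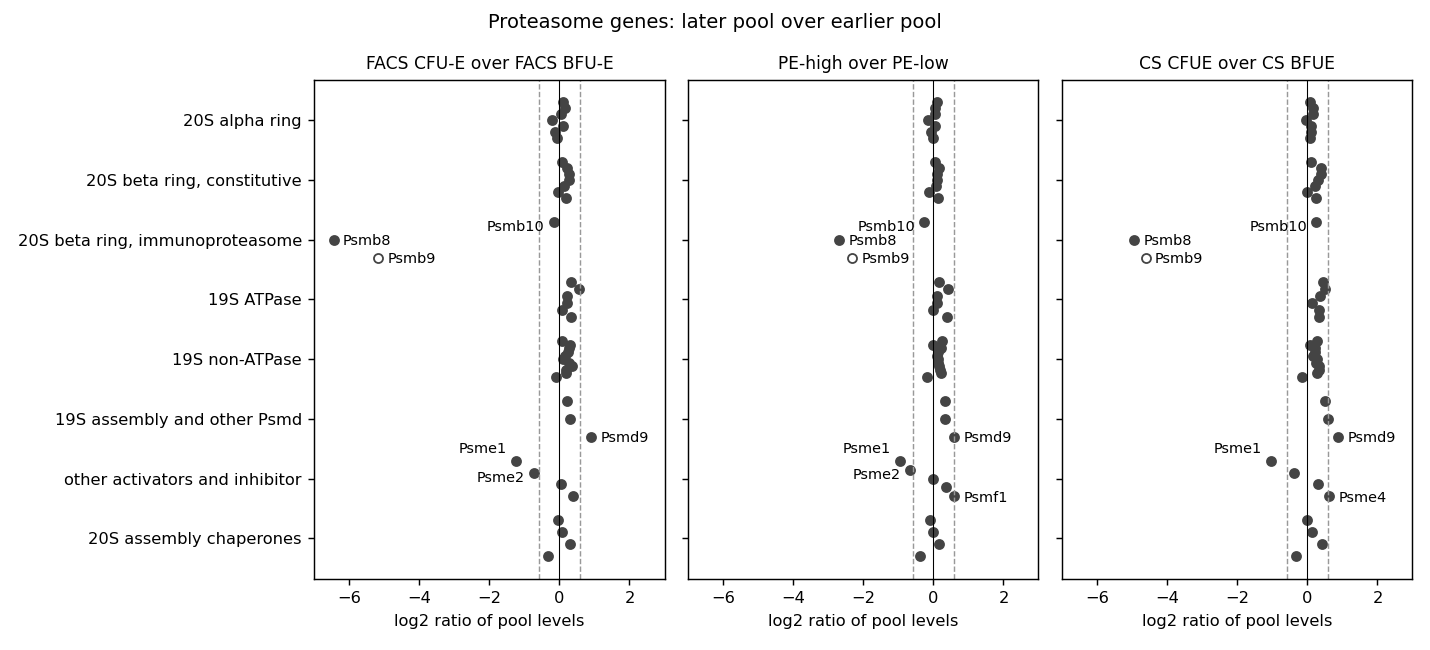
Log2 ratio of pool levels for the proteasome genes compared, later pool over earlier pool, by class (rows), with 1 panel for each pair of pools. Filled points passed the filter on low values, open points are Psmb9, which did not, dashed lines mark 1.5-fold, and Psmc3ip is not drawn. Psmb8 lies at -6.44, -2.69 and -4.94, while the alpha ring, the constitutive beta ring and the 19S subunits lie between the dashed lines.

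Psmb8, the chymotrypsin-like catalytic subunit that replaces Psmb5, was found at a few CPM in FACS CFU-E and CS CFUE, at an intermediate level in PE-high and at 118 to 131 CPM in the earlier pools. Its level was 1.44 CPM (0.660 to 2.74) in FACS CFU-E against 125 (117 to 134) in FACS BFU-E, a log2 ratio of -6.44, which is 86.9-fold lower (45.6 to 191). It was 20.4 CPM (17.8 to 23.2) in PE-high and 131 (123 to 140) in PE-low, 6.46-fold lower (5.57 to 7.50). It was 3.83 CPM (2.54 to 5.53) in CS CFUE and 118 (106 to 131) in CS BFUE, 30.7-fold lower (20.9 to 46.9). The 3 earlier pools thus had nearly the same level, and the later pools differed, with PE-high the highest. Cells with a Psmb8 UMI made up 3.59% of FACS CFU-E (1.33 to 7.66) and 73.0% of FACS BFU-E (66.8 to 78.6), in pools of the same library. With each cell thinned to 10000 UMIs the shares were 1.20% in FACS CFU-E against 49.8% in FACS BFU-E. The other pairs gave 11.2% in PE-high and 67.3% in PE-low, and 5.13% in CS CFUE and 71.3% in CS BFUE. At 10000 UMIs per cell, 24 of 294 PE-high cells and 104 of 208 PE-low cells held a Psmb8 UMI, and 5 of 195 CS CFUE cells and 61 of 122 CS BFUE cells.

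Psmb9, the catalytic subunit that replaces Psmb6, was at a lower level and had the same direction. It had 0.963 CPM (0.353 to 2.10, from 6 UMIs) in FACS CFU-E against 34.7 (30.6 to 39.2) in FACS BFU-E. PE-high had 7.45 CPM (5.93 to 9.25) and PE-low 37.3 (32.9 to 42.0). CS CFUE had 1.37 CPM (0.655 to 2.51, from 10 UMIs) and CS BFUE 33.4 (27.1 to 40.6). The log2 ratios of -5.17, -2.32 and -4.61 are given as levels below the filter and were not counted as past.

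Psmb10, the catalytic subunit that replaces Psmb7, did not follow Psmb8 and Psmb9. Its level was 189 CPM (179 to 200) in FACS CFU-E against 213 (202 to 224) in FACS BFU-E, 190 (182 to 198) in PE-high and 229 (218 to 241) in PE-low, and 199 (189 to 210) in CS CFUE and 167 (153 to 183) in CS BFUE. The log2 ratios were -0.17, -0.27 and 0.25, all within 1.5-fold, and a Psmb10 UMI was found in 93.4% to 99.4% of the cells of every pool. The difference between the direction of the hashed pairs and that of the CS pair was not tested.

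The constitutive counterparts stayed near level. Psmb5 had 486 CPM in FACS CFU-E against 445 in FACS BFU-E, 476 in PE-high and 458 in PE-low, and 393 in CS CFUE and 339 in CS BFUE. Psmb6 had 426 CPM in FACS CFU-E against 438 in FACS BFU-E, 395 in PE-high and 429 in PE-low, and 344 in CS CFUE and 343 in CS BFUE. Psmb7 had 266 CPM in FACS CFU-E against 235 in FACS BFU-E, 251 in PE-high and 229 in PE-low, and 169 in CS CFUE and 143 in CS BFUE. None of these pairs of levels was 1.5-fold apart.

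Set against its own counterpart within the same cells, each immunoproteasome subunit gives a share that needs no scaling between pools. Genes can differ in how well their 3' ends are captured, so the shares are compared between pools and are not protein ratios. Psmb8 held 0.296% (0.135 to 0.561) of the Psmb8 and Psmb5 UMIs in FACS CFU-E against 22.0% (20.7 to 23.3) in FACS BFU-E. It held 4.1% (3.59 to 4.66) in PE-high and 22.3% (21.0 to 23.6) in PE-low, and 0.964% (0.641 to 1.39) in CS CFUE and 25.8% (23.5 to 28.2) in CS BFUE. Psmb9 held 0.225% of its pair in FACS CFU-E against 7.34% in FACS BFU-E, 1.85% in PE-high and 7.99% in PE-low, and 0.396% in CS CFUE and 8.86% in CS BFUE. Psmb10 held 41.6% (39.8 to 43.4) of its pair in FACS CFU-E against 47.6% (45.8 to 49.3) in FACS BFU-E, 43.0% in PE-high and 50.1% in PE-low, and 54.1% (52.2 to 56.0) in CS CFUE and 54.0% (50.7 to 57.2) in CS BFUE. The shares of Psmb8 and Psmb9 thus separated the stages in all 3 pairs of pools, and that of Psmb10 differed by a few percentage points in the hashed pools and not beyond counting error in the CITE-seq pools. Together the 3 immunoproteasome genes held 14.0% of the UMIs of all 6 catalytic genes in FACS CFU-E against 25.0% in FACS BFU-E, 16.2% in PE-high and 26.3% in PE-low, and 18.4% in CS CFUE and 27.9% in CS BFUE.

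**Figure D2:**
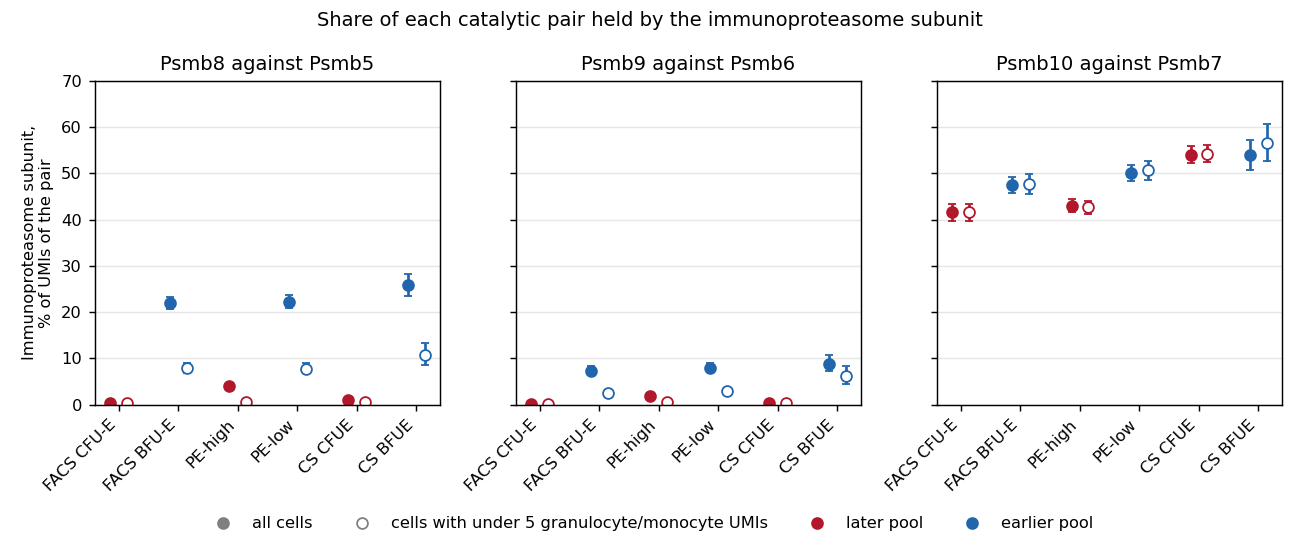
Share of the UMIs of each catalytic pair held by the immunoproteasome subunit (vertical axis, percent), by pool, with 1 panel for each pair. Red points are later pools and blue points earlier pools, filled points are all cells and open points cells with under 5 UMIs of the granulocyte and monocyte list, and bars are exact 95% binomial intervals. The points of Psmb8 lie at 22.0% to 25.8% in the earlier pools with all cells and at 7.78% to 10.8% once cells with those markers are left out, while the points of Psmb10 lie between 41.6% and 56.7% in all pools.

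Most of the Psmb8 transcripts of the earlier pools lay in cells that also held granulocyte or monocyte transcripts. Cells with at least 5 UMIs summed over that marker list were 0 of 167 in FACS CFU-E and 86 of 233 (36.9%) in FACS BFU-E, 20 of 294 (6.80%) in PE-high and 60 of 208 (28.8%) in PE-low, and 3 of 195 (1.54%) in CS CFUE and 45 of 122 (36.9%) in CS BFUE. They held 79.9% of the Psmb8 UMIs of FACS BFU-E, 86.6% of those of PE-high, 78.7% of those of PE-low and 77.9% of those of CS BFUE. Psmb8 stood at 297 CPM in FACS BFU-E cells with these markers and 38.1 in those without. It stood at 376 CPM with and 2.86 without markers in PE-high, at 381 with and 38.4 without in PE-low, and at 264 with and 39.7 without in CS BFUE. Psmb9 was likewise higher in the cells with markers, at 81.2 CPM with and 11.1 without in FACS BFU-E, 112 with and 2.29 without in PE-high, 103 with and 12.6 without in PE-low, and 54.3 with and 22.2 without in CS BFUE. Psmb10 showed no such gap, at 213 CPM both with and without markers in FACS BFU-E, 227 with and 188 without in PE-high, 228 with and 230 without in PE-low, and 144 with and 180 without in CS BFUE.

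**Figure D3:**
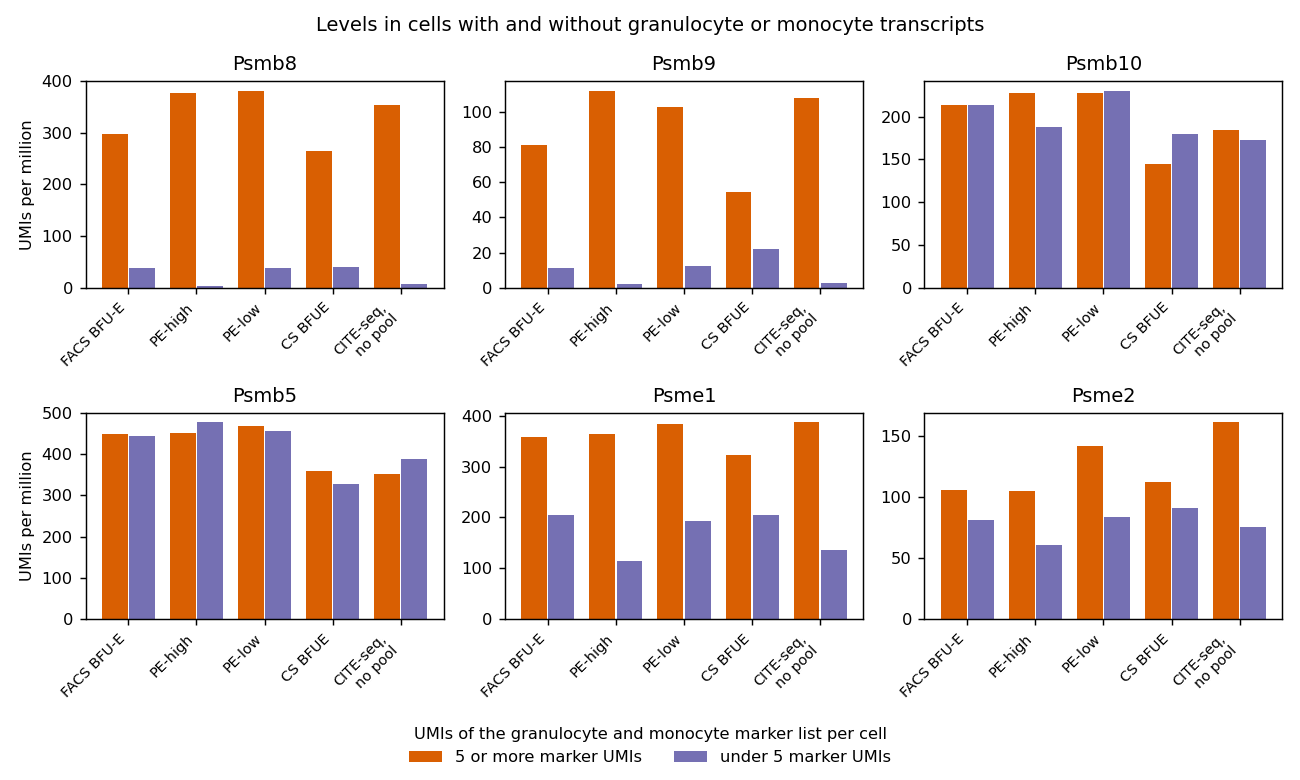
Level of 6 proteasome genes (vertical axes, CPM, each starting at 0) in cells with 5 or more UMIs of the granulocyte and monocyte list (orange) and in cells with fewer (purple), in the 4 pools with at least 20 such cells and in the CITE-seq cells with no pool name. Bars are levels of summed UMIs and carry no error bars. Psmb8 and Psmb9 are higher in the orange bars throughout, Psme1 is higher in all 5 sets, and Psmb10 and Psmb5 are near level.

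The stage difference of Psmb8 and Psmb9 was also present with those cells left out, at a smaller size in the FACS and CS pairs. Without them the log2 ratio of Psmb8 was -4.72 in the FACS pair, -3.75 in the PE pair and -4.46 in the CS pair, and that of Psmb9 was -3.52, -2.46 and -4.00. Psmb8 then held 0.296% of its pair in FACS CFU-E against 7.90% in FACS BFU-E, 0.596% in PE-high and 7.78% in PE-low, and 0.458% in CS CFUE and 10.8% in CS BFUE. A stricter choice, made after seeing the data, kept only cells under 5 marker UMIs that also held at least 3 UMIs of Klf1, the transcription factor of red cell genes. In these cells Psmb8 had 0.805 CPM (5 UMIs in 166 cells) in FACS CFU-E against 36.5 (161 UMIs in 126 cells) in FACS BFU-E, where 71 of the 126 cells held a UMI. It had 1.15 CPM in PE-high and 30.1 in PE-low, and 1.81 in CS CFUE and 36.0 in CS BFUE. Cells with Klf1 in the 3 earlier pools thus held Psmb8 at 30.1 to 36.5 CPM. The part of other cell types in what remains was not tested.

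The CITE-seq cells with no pool name, which enter none of the comparisons above, give the same genes in cells ordered by a score. These cells were ranked by a stage score, the log2 ratio of UMIs of 10 later to 10 earlier genes, none of them a proteasome gene. They were then cut into 5 bins of 427 or 428 cells. The earlier genes, among them Cd34, Runx1, Vim and Apoe, are not specific to erythroid cells, so a low score can also mark other cells. The globin gene Hba-a1 ran from 58.5 CPM in the earliest bin to 3349 in the latest. Psmb8 had 122, 2.49, 0.536, 0.242 and 0.350 CPM from the earliest to the latest bin, and Psmb9 had 38.3, 2.06, 0.919, 0.403 and 0.787. Both were thus highest in the first bin, which held 132 of the 134 cells with granulocyte or monocyte markers. With those cells left out and the bins cut anew, Psmb8 had 29.7 CPM (26.7 to 33.0) in the first bin and 1.76 (1.11 to 2.64) in the second, and 0.374 or less in the other 3.

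Psmb10 took another course, level over the first 2 bins and then lower bin by bin. It had 222 CPM (214 to 231), 226 (218 to 234), 183 (175 to 190), 133 (127 to 140) and 88.6 (83.2 to 94.2). Without cells with the markers the values were 230, 224, 177, 128 and 84.7 CPM. Its counterpart Psmb7 had 158, 168, 175, 178 and 178 CPM and Psmb5 had 363, 399, 400, 393 and 372. The 3 immunoproteasome genes together held 30.6%, 20.3%, 16.5%, 12.7% and 9.04% of the UMIs of the 6 catalytic genes. The intervals of Psmb10 did not overlap from the second bin on. The main step of Psmb8 and Psmb9 lay between the first and second bin and that of Psmb10 between the second and the fifth. The first bin was wide, with scores from -7.33 to 2.12, and the others ran from 2.12 to 8.23. Median scores were -1.14 to -1.01 in the earlier pools and 3.40 to 4.15 in the later pools. The medians of the earlier pools thus fell inside the first bin, so these bins do not place changes within that range. A bin is a range of a score and not a cell type, and the bins are not replicated.

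**Figure D4:**
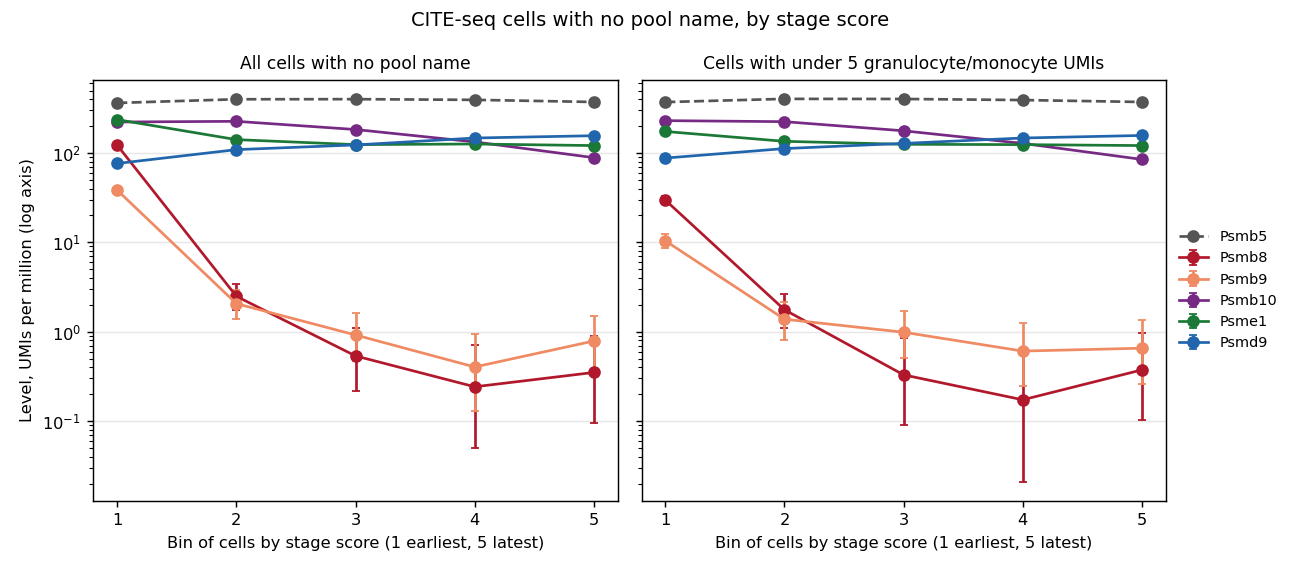
Level (vertical axis, CPM, log scale) of Psmb8, Psmb9, Psmb10, Psme1, Psmd9 and Psmb5 in 5 bins of CITE-seq cells with no pool name, ordered by stage score from earliest (1) to latest (5), for all cells (left) and for cells with under 5 granulocyte and monocyte UMIs (right). Bars are exact 95% Poisson intervals; Psmb5 is drawn without. Psmb8 and Psmb9 drop between bins 1 and 2, Psmb10 declines from bin 2 to bin 5, and Psmd9 is higher in each later bin.

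Within these cells, Psmb8 went together with Psmb9 and with the activator genes Psme1 and Psme2, and not with Psmb10. At 10000 UMIs per cell, 1921 cells had 0 Psmb8 UMIs, 63 had 1 and 146 had 2 or more. Psmb9 stood at 1.30, 33.3 and 125 CPM in these 3 sets and Psmb10 at 167, 213 and 190. Psme1 stood at 133, 225 and 400 CPM and Psme2 at 72.2, 133 and 171. Mpo, the myeloperoxidase of granulocytes, stood at 1.61, 297 and 501 CPM and Klf1 at 352, 154 and 29.5. The cells richest in Psmb8 were thus rich in myeloid and poor in erythroid transcripts, as a description of the same cells.

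Psme1 and Psme2 encode the alpha and beta subunits of PA28, a ring that opens the 20S core without ubiquitin and, like the immunoproteasome, is inducible by interferon gamma. Psme1 had 108 CPM (99.8 to 116) in FACS CFU-E against 256 (245 to 268) in FACS BFU-E, 2.38-fold lower (2.17 to 2.60). It had 126 CPM (120 to 133) in PE-high and 244 (233 to 256) in PE-low, 1.94-fold lower (1.80 to 2.08), and 119 (111 to 127) in CS CFUE and 246 (228 to 264) in CS BFUE, 2.06-fold lower (1.87 to 2.28). The later pools lay between 108 and 126 CPM and the earlier ones between 244 and 256. Psme2 had 54.4 CPM in FACS CFU-E against 89.4 in FACS BFU-E, 62.4 in PE-high and 99.1 in PE-low, and 76.0 in CS CFUE and 98.0 in CS BFUE, with log2 ratios of -0.72, -0.67 and -0.37. Psme2b, listed at 2.73 to 6.21 CPM in the 6 pools, is a near-identical copy of Psme2, so how reads were split between them is uncertain.

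Unlike Psmb8, Psme1 stayed well detected in the later pools, with a UMI in 97.0% of FACS CFU-E cells and 99.6% of FACS BFU-E cells. Both PA28 genes were higher in cells with granulocyte or monocyte markers, where Psme1 stood at 358 CPM against 204 in the other cells of FACS BFU-E, 364 against 115 in PE-high, 383 against 193 in PE-low and 322 against 205 in CS BFUE. Without cells with markers, Psme1 had log2 ratios of -0.92, -0.75 and -0.80 in the FACS, PE and CS pairs, all still past 1.5-fold. Psme2 then had -0.57, -0.46 and -0.27 and was past 1.5-fold in none. In the CITE-seq bins Psme1 had 236, 141, 124, 126 and 121 CPM, and 174, 135, 125, 124 and 121 without cells with markers. In each case most of its difference lay between the first bin and the second.

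The other activators and the inhibitor were higher in the later pools or level. Psme3, the nuclear activator PA28 gamma, had 122 CPM in FACS CFU-E against 117 in FACS BFU-E, 117 in both PE-high and PE-low, and 85.3 in CS CFUE and 69.4 in CS BFUE. Psme4, the activator PA200, had 70.1 CPM in FACS CFU-E against 53.4 in FACS BFU-E, 82.8 in PE-high and 64.9 in PE-low, and 60.0 in CS CFUE and 39.1 in CS BFUE, the last 1.54-fold higher (1.25 to 1.90). Psmf1, the 20S inhibitor PI31, had 47.2 CPM in FACS CFU-E against 36.5 in FACS BFU-E, 51.0 in PE-high and 33.7 in PE-low (1.51-fold, 1.30 to 1.77), and 44.3 in CS CFUE and 29.0 in CS BFUE. In the PE pair Psmf1, and in the CS pair Psme4, could enter only by being higher in the later pool. Across the CITE-seq bins Psme4 had 46.9, 55.5, 55.7, 61.5 and 70.5 CPM and Psmf1 37.4, 43.9, 46.9, 57.9 and 63.6. The interval of each call at 1.5-fold reached below 1.5. Both calls ended without cells with granulocyte and monocyte markers, at log2 ratios of 0.48 for Psme4 in the CS pair and 0.43 for Psmf1 in the PE pair. In the other pairs Psmf1 was under the filter and not counted. Its log2 ratio was 0.61 in the CS pair, and 0.70 without those cells. It was 0.37 in the FACS pair, and 0.20 without them.

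The constitutive core and the 19S cap were near level between stages, with small ratios mostly on the later side. These classes hold 32 genes, of which 31 were compared in each pair and 0 lay past 1.5-fold in any. Of all genes compared, 18.7% lay past 1.5-fold either way in the FACS pair, 12.8% in the PE pair and 19.5% in the CS pair. The count of 0 is by fixed size and no test was made. Psmc2, nearest to the limit in the FACS pair at a log2 ratio of 0.57, passed it there with cells weighted alike (0.63) and with cells thinned to 10000 UMIs (0.67). Their median log2 ratio was 0.18 in the FACS pair, 0.11 in the PE pair and 0.22 in the CS pair, against 0.04, 0.02 and 0.07 for all genes compared. Ratios were above 0 for 26, 25 and 29 of the 31. Summed over the classes, the level was 11357 CPM in FACS CFU-E against 10393 in FACS BFU-E, 11013 in PE-high and 10417 in PE-low, and 8843 in CS CFUE and 7716 in CS BFUE. These genes are subunits of 1 complex, so their shared direction is not a set of separate observations.

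Among the constitutive core and 19S classes the ATPase ring had the highest median in the FACS and CS pairs and shared the highest with the other 19S subunits in the PE pair, and the alpha ring had the lowest. The 6 ATPase genes had medians of 0.27, 0.14 and 0.34 in the FACS, PE and CS pairs, led by Psmc2. Psmc2, the base ATPase Rpt1, had 315 CPM in FACS CFU-E against 212 in FACS BFU-E (1.48-fold, 1.39 to 1.58), 288 in PE-high and 215 in PE-low (1.34-fold, 1.26 to 1.43), and 208 in CS CFUE and 147 in CS BFUE (1.42-fold, 1.28 to 1.58). Psmc6, the ATPase Rpt4, had 290 CPM in FACS CFU-E against 228 in FACS BFU-E, 291 in PE-high and 222 in PE-low, and 217 in CS CFUE and 173 in CS BFUE. The 11 other 19S subunits had medians of 0.19, 0.14 and 0.25. Among them the ubiquitin receptor gene Psmd4 had 330 CPM in FACS CFU-E against 260 in FACS BFU-E, 307 in PE-high and 274 in PE-low, and 331 in CS CFUE and 262 in CS BFUE. Psmd8 ran the other way, with 261 CPM in FACS CFU-E against 280 in FACS BFU-E, 269 in PE-high and 302 in PE-low, and 199 in CS CFUE and 222 in CS BFUE. The constitutive beta ring had medians of 0.18, 0.09 and 0.24. The 7 alpha ring genes compared had medians of 0.05, 0.04 and 0.11, with Psma4 lowest in the FACS pair at 430 CPM in FACS CFU-E against 495 in FACS BFU-E. The eighth alpha gene, Psma8, known from testis, was listed at 4.01 to 9.36 CPM.

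Psmd9, a chaperone that helps to assemble the ATPase ring of the 19S cap, was the member with the highest ratio in the FACS and CS pairs. It was also the highest in the PE pair, by a narrow margin over Psmf1. It had 152 CPM (143 to 162) in FACS CFU-E against 81.2 (74.8 to 88.0) in FACS BFU-E, 1.87-fold higher (1.69 to 2.08). It had 144 CPM (137 to 151) in PE-high and 94.7 (87.7 to 102) in PE-low, 1.52-fold higher (1.39 to 1.66), and 123 (115 to 131) in CS CFUE and 67.0 (58.0 to 77.0) in CS BFUE, 1.83-fold higher (1.57 to 2.15). The later pools lay between 123 and 152 CPM and the earlier ones between 67.0 and 94.7. In the PE pair the value was at the limit, with a log2 ratio of 0.60, and fell short of it without cells with granulocyte and monocyte markers (0.52) and with the median ratio of all genes set to 1 (0.58). Over the CITE-seq bins Psmd9 had 76.3 CPM (71.3 to 81.6), 109 (104 to 115), 123 (117 to 129), 147 (140 to 154) and 156 (149 to 163), higher in each later bin, and 87.7, 112, 128, 147 and 157 without cells with markers.

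The other assembly genes differed less. Psmd5, another chaperone of the 19S base, had 108 CPM in FACS CFU-E against 86.9 in FACS BFU-E, 107 in PE-high and 85.3 in PE-low, and 74.3 in CS CFUE and 49.9 in CS BFUE, the last just inside 1.5-fold at a ratio of 1.49 (1.24 to 1.80). Psmd10, a chaperone of the same base known as gankyrin, had 52.0 CPM in FACS CFU-E against 44.9 in FACS BFU-E, 63.3 in PE-high and 50.1 in PE-low, and 50.6 in CS CFUE and 35.7 in CS BFUE. Psmg4, a chaperone of the 20S alpha ring, was the lowest of the genes compared after Psmb8, Psme1 and Psme2, with 81.2 CPM in FACS CFU-E against 101 in FACS BFU-E, 82.3 in PE-high and 107 in PE-low, and 110 in CS CFUE and 139 in CS BFUE. Its partners did not share that: Psmg3 had 173 CPM in FACS CFU-E against 141 in FACS BFU-E, 167 in PE-high and 151 in PE-low, and 143 in CS CFUE and 106 in CS BFUE. Psmg1 and Psmg2 had log2 ratios between -0.11 and 0.12 in the FACS, PE and CS pairs.

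Within a stage, no proteasome gene compared lay past 1.5-fold between the PE and the FACS pools. Nearly all genes lay within that limit, so this is not particular to proteasome genes. Of 45 genes compared, 0 lay past 1.5-fold between PE-low and FACS BFU-E, beside 0.796% of 3267 genes (0.306% higher and 0.49% lower in PE-low), and 0 of 45 between PE-high and FACS CFU-E, beside 0.829% of 3257 genes (0.706% higher and 0.123% lower in PE-high). The constitutive core and 19S genes had medians of 0.01 in the first comparison and -0.05 in the second, against 0.02 and -0.00 for all genes compared. Between PE-low and FACS BFU-E the highest ratios were those of Psme4 (64.9 CPM in PE-low and 53.4 in FACS BFU-E), Psmd11 (216 in PE-low and 181 in FACS BFU-E), Psmd9 (94.7 in PE-low and 81.2 in FACS BFU-E) and Psmd10 (50.1 in PE-low and 44.9 in FACS BFU-E). The lowest were those of Psmd1 (193 CPM in PE-low and 235 in FACS BFU-E), Psmc3ip (58.9 in PE-low and 65.0 in FACS BFU-E), Psmg2 (109 in PE-low and 118 in FACS BFU-E) and Psma7 (779 in PE-low and 825 in FACS BFU-E). Between PE-high and FACS CFU-E the highest were Psmd10 (63.3 CPM in PE-high and 52.0 in FACS CFU-E), Psme4 (82.8 in PE-high and 70.1 in FACS CFU-E), Psme1 (126 in PE-high and 108 in FACS CFU-E) and Psme2 (62.4 in PE-high and 54.4 in FACS CFU-E). These ratios were between 1.15 and 1.22. The lowest were Psmg2 (108 CPM in PE-high and 124 in FACS CFU-E), Psmb3 (478 in PE-high and 531 in FACS CFU-E), Psmd3 (208 in PE-high and 228 in FACS CFU-E) and Psmc2 (288 in PE-high and 315 in FACS CFU-E).

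Psmb8 and Psmb9 differed between the later pools PE-high and FACS CFU-E at levels under the filter. Psmb8 had 20.4 CPM in PE-high and 1.44 in FACS CFU-E, a log2 ratio of 3.82, and Psmb9 had 7.45 CPM in PE-high and 0.963 in FACS CFU-E, a log2 ratio of 2.95. Without the 20 PE-high cells with granulocyte and monocyte markers these log2 ratios were 0.99 and 1.25. Psmb8 was at 0 UMIs in 261 of 294 PE-high cells and in 161 of 167 FACS CFU-E cells. In the earlier pools Psmb8 had log2 ratios of 0.07 (PE-low over FACS BFU-E) and Psmb9 of 0.10.

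Other genes of the pathway were taken from a list of 27 partners (ubiquitin genes, shuttles, deubiquitinases, the core maturation factor, transcription factors of proteasome genes and others), of which 20, 19 and 16 were compared in the FACS, PE and CS pairs. The list also holds Psmc3ip, which the name rule takes too and which is counted here. The median log2 ratios were -0.00 in the FACS pair, -0.05 in the PE pair and 0.02 in the CS pair. Pomp, the factor that matures the 20S core, had 426 CPM in FACS CFU-E against 427 in FACS BFU-E, 430 in PE-high and 479 in PE-low, and 341 in CS CFUE and 355 in CS BFUE.

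Of 12 genes of MHC class I peptide loading, 6 were compared in each pair, and 3, 2 and 2 lay past 1.5-fold lower in the later pool of the FACS, PE and CS pairs, with 0 higher. Of all genes compared, 9.58% lay past 1.5-fold lower in the FACS pair, 6.94% in the PE pair and 8.77% in the CS pair. B2m, the class I light chain, had 76.1 CPM in FACS CFU-E against 162 in FACS BFU-E, 88.0 in PE-high and 154 in PE-low, and 65.6 in CS CFUE and 155 in CS BFUE. In the CITE-seq cells with no pool name, B2m had 145 CPM in the first bin and 67.9 in the second. Without cells with granulocyte and monocyte markers, and with bins cut anew, it had 83.8 and 69 CPM. H2-K1, a class I heavy chain, had 51.3 CPM in FACS CFU-E against 105 in FACS BFU-E, 54.3 in PE-high and 87.5 in PE-low, and 34.0 in CS CFUE and 78.8 in CS BFUE, where it could enter only by being higher in CS BFUE. Calr, the chaperone calreticulin, was past the limit in the FACS pair, at 670 CPM in FACS CFU-E against 1124 in FACS BFU-E. Tap1, which shares its promoter region with Psmb9, was under the filter, at 1.28 CPM in FACS CFU-E against 13.8 in FACS BFU-E, 2.64 in PE-high and 13.8 in PE-low, and 1.09 in CS CFUE and 10.4 in CS BFUE.

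Of 22 genes of interferon signalling and its targets, 9, 9 and 8 were compared, 6, 7 and 5 lay past 1.5-fold lower in the later pool and 1 higher in each pair. Beside these counts stand 9.58%, 6.94% and 8.77% lower and 9.15%, 5.84% and 10.7% higher among all genes compared in the FACS, PE and CS pairs. Those furthest from 1 were Ifitm1, Irf8, Ifitm3 and Ifitm2 in the FACS and PE pairs, and Ifitm1, Ifitm3, Ifitm2 and Ifi30 in the CS pair. Ifitm2, a membrane protein that restricts viruses, had 36.7 CPM in FACS CFU-E against 327 in FACS BFU-E, 63.2 in PE-high and 277 in PE-low, and 57.4 in CS CFUE and 356 in CS BFUE. As it was under 50 CPM in FACS CFU-E, its direction in the FACS pair follows from the filter. Ifitm1 and Ifitm3, of the same family, Bst2, which tethers viruses to cells, and Irf8, a transcription factor of monocytes, were under 50 CPM in the later pools, so their direction follows from the filter wherever they were compared. Ifi30, a lysosomal thiol reductase, ran the other way, with 176 CPM in FACS CFU-E against 49.9 in FACS BFU-E, 147 in PE-high and 87.1 in PE-low, and 146 in CS CFUE and 25.9 in CS BFUE, and in the FACS and CS pairs its direction too follows from the filter. The granulocyte and monocyte markers moved with the lower genes, at the summed levels given above, and their part in these lists was not tested.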

How the data were processed

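The authors deposited a natural log expression table for all cells, with genes given by Ensembl ID, and a cell table with a pool name per cell (other text). An entry is ln(1 + UMIs per 10000 of that cell): undoing the log gave every cell a sum of 10000. Per the submitters' processing notes, the tools were Cell Ranger 4.0.0 and Scanpy, with mm10 as the build. The sources used here do not give filters, doublet handling or strand setting, and no doublet caller was run. The authors also deposited 2 principal component score columns per cell, which were not used.

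Since the deposited table holds log values, UMIs were recovered as the linear value over the smallest nonzero one of the same cell; of 16419767 nonzero entries, 100% lay within 0.02 of a whole number. There were 3357 cells and 17608 genes; 16 IDs had no symbol and 10 shared one. The libraries shared 0 barcodes. Cells were placed in a library by the ending of their barcode, which was 1 and the same for every cell named as hashed. UMIs were summed per pool and scaled to CPM with Python 3.11.15, numpy 2.4.6, scipy 1.17.1 and pandas 2.3.3. Intervals are at 95% and exact: conditional binomial for ratios, Poisson for levels and Clopper-Pearson for shares. The ratio step was tested on simulated pools with known ratios. PCR and capture are not covered by the intervals. No ratio used a floor, since no gene named had 0 UMIs in a pool it was compared in. Shares of cells with a UMI are also given with each cell thinned to 10000 UMIs, which left out 0 cells of the pools and 6 with no pool name.

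The members, the gene lists, the stage score and the comparisons were chosen with earlier results of these data known. Named are the catalytic pairs, the activators, the 4 highest and 4 lowest ratios among members in each comparison, and up to 4 members past 1.5-fold of the antigen processing and interferon lists (the calls within the list of pathway partners are not reported here); other members are given as examples of their class. Positions and promoter windows are from RefSeq on GRCm38.p6, the assembly that mm10 denotes, and 41 of the 49 genes had a window. Alternatives were another scaling, equal weight per cell, leaving out cells with granulocyte and monocyte markers, thinning, other filters and a 2-fold limit.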

Additional observations from a re-analysis of the deposited data

Results flagged for a closer look

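Psmb10 differed in direction between the hashed pairs of pools and the CS pair. Its log2 ratio was -0.17 for FACS CFU-E over FACS BFU-E (ratio 0.889, 0.823 to 0.959) and -0.27 for PE-high over PE-low (0.828, 0.775 to 0.884), but 0.25 for CS CFUE over CS BFUE (1.19, 1.07 to 1.32). It was singled out because the pairs of the hashed library moved one way and the CS pair the other. The CITE-seq cells with no pool name had 222, 226, 183, 133 and 88.6 CPM from the earliest to the latest bin. The median stage score of CS BFUE, -1.14, fell inside bin 1 (-7.33 to 2.12). That of CS CFUE, 3.40, fell near the lower end of bin 3 (3.35 to 4.47). The lowest values, in bins 4 and 5, thus lie at later scores than both medians. Whether the cells with no pool name differ in direction from the CS pair over the same scores was not tested. The share of Psmb10 in its pair with Psmb7 was 54.1% in CS CFUE and 54.0% in CS BFUE. The difference between the pairs was not tested, the intervals cover counting error only, and each pair is 1 pool a side. With the median ratio of all genes set to 1 the log2 ratios were -0.21, -0.30 and 0.18, and without cells with granulocyte and monocyte markers -0.17, -0.29 and 0.16.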

How the results depend on the processing

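No paired analysis was possible because each group is 1 pool and the result comes from no test; for the same reason no replicate could be left out. Of 388 values recomputed 53 moved, and no ratio past 1.5-fold changed direction. Between PE-low and FACS BFU-E, log2 values near 0 did: the core and 19S median (0.01; values below), Psmc2 (0.02, and -0.02 without marker cells), Psmb5 (0.04, and -0.03 thinned) and Psmf1 (-0.11, and 0.22 thinned). Without cells with 5 or more granulocyte and monocyte UMIs, the counts of proteasome genes past 1.5-fold were 2 in the FACS pair (Psmd9 and Psme1), 1 in the PE pair (Psme1) and 2 in the CS pair (Psmd9 and Psme1). Psmb8 then fell under 50 CPM in all pools and was not compared. At 2-fold the counts were 2, 1 and 2, and with the median ratio set to 1 the PE count was 3. With cells weighted alike or thinned, Psmc2 raised the FACS count to 5. Between PE-high and FACS CFU-E the count was 3 without a filter and 1 at 20 CPM. The share of all genes past the limit was worked out for the main setting only. These recomputed counts therefore have no such share beside them and say nothing particular to proteasome genes. The medians of the constitutive core and 19S genes were 0.14, 0.08 and 0.15 in the FACS, PE and CS pairs with the median ratio set to 1, 0.16 (FACS) and 0.09 (PE) without the marker cells, and 0.20 (FACS) with cells weighted alike. For PE-low over FACS BFU-E they were -0.01, -0.02 and 0.03 under these settings, and for PE-high over FACS CFU-E -0.07 with cells weighted alike. The share of the 6 catalytic genes held by the 3 immunoproteasome genes differed by -11.0, -10.0 and -9.43 percentage points in the FACS, PE and CS pairs and by 2.25 for PE-high minus FACS CFU-E. Without the marker cells these were -4.96, -5.69, -4.86 and 0.664 points, and with only the Klf1 cells, chosen after seeing the data, -5.20, -5.75, -4.46 and 0.632. In the CITE-seq bins the log2 ratio of the 3 genes, latest over earliest, was -2.09, and -2.30 with cells weighted alike, -1.65 without the marker cells and -2.38 thinned. The cause of the other changes was not tested. Psmb8 and Psmb9 in the later pools rest on few UMIs (6 to 28 in FACS CFU-E and CS CFUE), which limits how low a level can be told from 0.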
